A study of Mus musculus with 12 samples.

Results

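The RNA of 9 lipid transport genes was measured in sorted cells cultured from embryonic mouse hypothalamus. The genes are Apoe, Clu and Apod (apolipoproteins), Lcat and Lpl (enzymes that act on lipoprotein lipids), Abca1 and Abcg1 (lipid exporters), and Lrp1 and Vldlr (receptors). They were picked by name from 48709 gene identifiers, with their values in these libraries already known. Apoe was picked as the gene with the most reads in most libraries, so its level and rank are given as a description, with no test. RNA was sequenced from 12 libraries in 4 groups of 3: cells positive and cells negative for mCherry, and cells positive and cells negative for EGFP. All came from C57BL/6 mice, as primary cultures of dissociated E18 (embryonic day 18) hypothalamus. Cells received virus at a multiplicity of infection of 10, an AAV carrying the reporter for HCRT (hypocretin) cells in the mCherry sort and a lentivirus carrying the one for MCH (melanin-concentrating hormone) cells in the EGFP sort. They grew as neurospheres, free-floating clusters of neural cells, with bFGF at 10 ng/ml added 24 h later, and were sorted after 1 week. The negative groups are the cells of the same sorts without reporter signal, so they too had been exposed to virus and bFGF. The cDNA of the mCherry sort was made from 0.8 ng of total RNA and that of the EGFP sort from 2 ng, each with 11 PCR cycles. Virus, reporter and RNA input therefore change together between the sorts and cannot be told apart. The regulatory sequence that drives each reporter, and the number of embryos behind a culture, are not stated in the labels.

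In the brain, lipoprotein particles are made locally, mainly by astrocytes. ABCA1 and ABCG1 export cholesterol and phospholipid onto apolipoprotein E and clusterin, LCAT esterifies the cholesterol on the particle, and receptors of the LDL receptor family such as LRP1 and VLDLR take particles up. LPL splits triglycerides, and apolipoprotein D is a lipocalin that carries small lipids. Liver X receptors (LXR), which sense oxysterols, are known to activate Abca1, Abcg1, Apoe and Lpl.

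Gene reads numbered 16.3 to 32.9 M (megareads) per library. Levels are given as CPM (reads of a gene per megaread in genes of its library) or, between genes, as TPM, which also divides by exon length. Hcrt itself was measured at 0.0949 to 0.426 CPM in mCherry-positive libraries, 21 reads in all, against 0.0329 to 0.230 CPM in mCherry-negative libraries, 11 reads in all. The defining gene of the labelled HCRT cells was thus close to absent, and "mCherry-positive" below means the sorted cells and not hypocretin neurons. Pmch, which encodes MCH, stood at 16.3 to 17.8 CPM in EGFP-positive libraries and at 4.01 to 5.12 CPM in EGFP-negative libraries. Markers of cell types outside the labels set single mCherry-positive libraries apart. Microglia and macrophage markers summed to 1173 CPM in replicate 1, against 145 and 151 CPM in replicates 2 and 3. Pituitary hormone cell markers summed to 9.60 CPM in replicate 1, against 2256 and 5389 CPM in replicates 2 and 3. In mCherry-negative libraries replicate 1 was the lowest as well, at 7.57 CPM against 222 and 117 CPM in replicates 2 and 3.

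Promoters of 4 genes are shown: Apoe for its level, Abca1 as the member called upward in both sorts, Lcat for its gap between the sorts and Apod for its fall in EGFP-positive cells. Each is the 250 bases upstream of the RefSeq start (GRCm38.p6), read 5′ to 3′ on the gene's own strand. Capitals mark matches to 4 motifs searched on both strands: the GC box GGGCGG, the CCAAT box CCAAT, the TATA box TATAAA, and DR4, the arrangement that LXR binds, as 2 copies of AGGTCA with 4 bases between them and up to 3 mismatches. Apoe is shown at chr7:19699189-19699438, Abca1 at chr4:53159896-53160145, Lcat at chr8:105943403-105943652 and Apod at chr16:31314809-31315058, all on the minus strand. The RefSeq start of Lcat lies 20 bases from the GENCODE one, and the other starts coincide.
Apoe: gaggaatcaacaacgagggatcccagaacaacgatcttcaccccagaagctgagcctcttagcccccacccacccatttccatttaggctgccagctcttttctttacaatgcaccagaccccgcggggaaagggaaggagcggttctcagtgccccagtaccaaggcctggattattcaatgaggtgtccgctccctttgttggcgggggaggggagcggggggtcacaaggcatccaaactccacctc
Abca1: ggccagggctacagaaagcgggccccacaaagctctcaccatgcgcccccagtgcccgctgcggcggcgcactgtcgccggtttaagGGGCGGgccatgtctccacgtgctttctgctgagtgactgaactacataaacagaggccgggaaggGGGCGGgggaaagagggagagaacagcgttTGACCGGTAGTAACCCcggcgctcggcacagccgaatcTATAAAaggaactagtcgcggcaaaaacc
Lcat: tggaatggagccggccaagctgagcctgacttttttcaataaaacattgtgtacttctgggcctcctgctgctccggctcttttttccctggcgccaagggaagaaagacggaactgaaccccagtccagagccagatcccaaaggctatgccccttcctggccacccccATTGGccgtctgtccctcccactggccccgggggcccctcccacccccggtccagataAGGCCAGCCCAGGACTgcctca
Apod: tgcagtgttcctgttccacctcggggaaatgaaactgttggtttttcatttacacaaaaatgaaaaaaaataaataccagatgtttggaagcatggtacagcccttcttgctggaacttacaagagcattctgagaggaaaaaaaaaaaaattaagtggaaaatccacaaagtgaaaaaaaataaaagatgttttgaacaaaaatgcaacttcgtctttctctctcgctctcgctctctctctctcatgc
The Abca1 window held GC boxes that start at -163 and -97, a TATA box at -29 to -24 and a DR4 match with 3 mismatches at -67 to -52 on the minus strand, counted back from the RefSeq start. The Lcat window held a CCAAT box at -80 to -76 on the minus strand and a DR4 match with 3 mismatches at -22 to -7. None of the 4 motifs was found in the Apoe, Apod and Vldlr windows, and the Lrp1 window held a single GC box. None of these matches overlapped another. Of 32851 mouse promoters of the same length, 32.7% held the GC box, 33.8% the CCAAT box, 12.4% the TATA box and 18.5% the DR4 match, so each match is common. The windows ranged in GC content between 36.4% in Apod and 67.2% in Lrp1, around a median of 52.4% over all promoters. Sequences were matched for 6 of the 9 genes, not for Clu, Abcg1 and Lpl.

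In the mCherry sort, the exporter Abca1 was the member that rose in mCherry-positive cells, 3.32-fold. Apoe, Clu, Lpl, Abcg1 and Lcat were 1.76-fold to 2.68-fold higher without passing the threshold, an adjusted p under 0.05 in the quasi-likelihood test of edgeR, adjusted over all genes after Benjamini and Hochberg. That is 1 called of 9 tested, where 1.20% of all genes tested were called, 0.541% upward. In 7 of the 9 genes all 3 mCherry-positive libraries lay above all 3 mCherry-negative libraries in CPM, against 12.7% of all genes. The median log2 fold change was 0.99 over the 9 genes and 0.02 over all genes tested.

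In the EGFP sort, 5 members rose in EGFP-positive cells: Apoe, Clu, Lcat, Abca1 and Lpl, by 1.83-fold to 2.38-fold. Apod and Lrp1 fell, Apod to 0.167 of its level in EGFP-negative cells. That is 7 called of 9, where 16.1% of all genes were called, 8.99% upward and 7.07% downward. The positive and negative libraries did not overlap for 5 genes upward and 3 downward, against 13.4% and 24.5% of all genes. The median log2 fold change was 0.87 over the 9 genes and -0.01 over all genes. The common coefficient of variation that edgeR fitted between replicates was 0.189 in this sort and 0.382 in the mCherry sort. Counts of calls in the 2 sorts thus come from unequal spreads. All 9 genes passed the filter on low counts in every comparison, but the members were chosen with such values known, so these counts describe the list and do not test it.

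**Figure D1:**
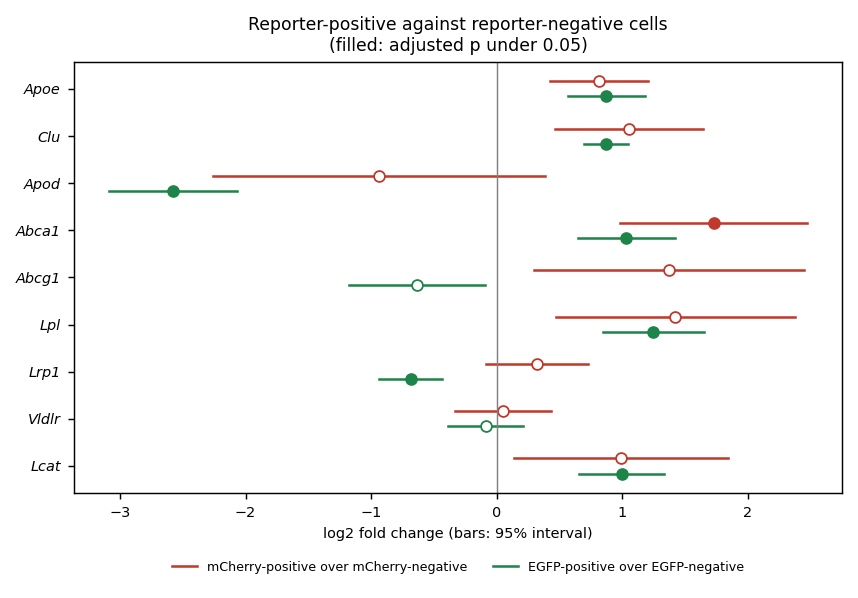
Log2 fold change (positive over negative) of the 9 genes on the horizontal axis, with its 95% interval, in the mCherry and the EGFP sort. Filled symbols mark an adjusted p under 0.05 in edgeR's quasi-likelihood test. Abca1 at 1.73 is the only filled mCherry symbol, 7 EGFP symbols are filled, and Apod, Lrp1 and Abcg1 lie left of 0 in the EGFP sort.

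Apoe (ENSMUSG00000002985, GRCm38 chr7:19696109-19699188, minus strand) encodes the main lipid carrier of brain lipoproteins. It had 8352, 7353 and 8842 CPM in mCherry-positive libraries, against 3956, 5013 and 4759 CPM in mCherry-negative libraries. It had 13253, 10137 and 8697 CPM in EGFP-positive libraries, against 7015, 6139 and 5685 CPM in EGFP-negative libraries. Positive and negative libraries did not overlap in either sort, and the lowest EGFP-positive library lay below the highest mCherry-positive one. Its share of all gene reads ran between 0.396%, in a mCherry-negative library, and 1.33%, in an EGFP-positive library. It had the most reads of any gene in 10 of 12 libraries and stood behind Tuba1a in mCherry-negative replicates 1 and 3. Per exon length it led 5 of 12 libraries. The log2 fold change was 0.81 ± 0.18 (SE, adjusted p = 0.0598) in the mCherry sort and 0.87 ± 0.14 (adjusted p = 0.00333) in the EGFP sort. In bulk RNA, more cells of a type and more RNA per cell cannot be told apart, here or in any result below.

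**Figure D2:**
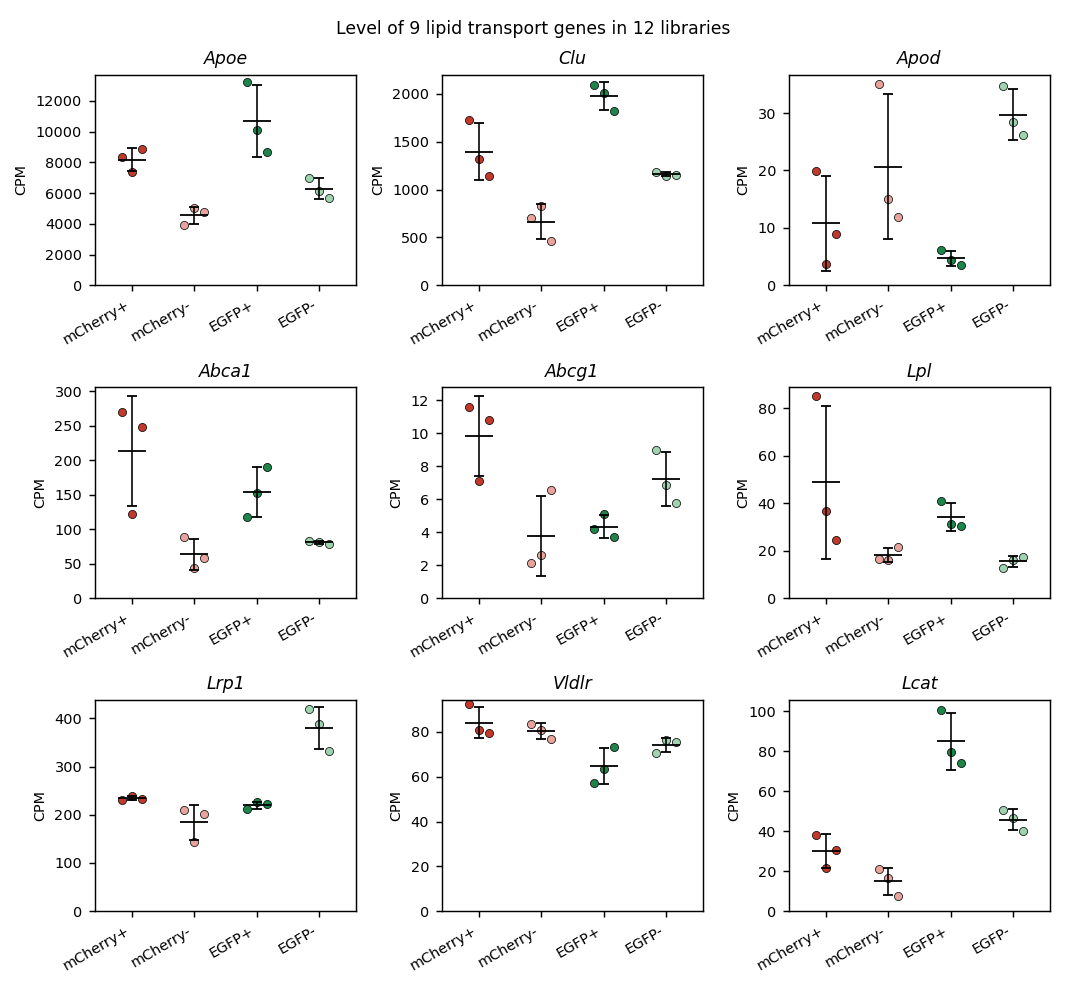
CPM (vertical axis, linear, with its own range for each gene) of the 9 genes in the 12 libraries, by group, with a point for each library in replicate order and bars for the mean and SD over 3 libraries. In the group names + is positive and - is negative. Apoe lies between 3956 and 13253 CPM, Apod is lowest in EGFP-positive libraries at 3.49 to 6.17 CPM, and Vldlr lies between 57.1 and 92.4 CPM.

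Clu (ENSMUSG00000022037, chr14:65968483-65981547, plus strand) encodes clusterin, or apolipoprotein J, a secreted chaperone that rides on the same particles. Its level was 1724, 1313 and 1146 CPM in mCherry-positive libraries, against 707, 824 and 461 CPM in mCherry-negative libraries. It was 2095, 2008 and 1814 CPM in EGFP-positive libraries, against 1183, 1144 and 1154 CPM in EGFP-negative libraries. The EGFP-negative libraries were close to each other, and every EGFP-positive library was above them. The mCherry groups did not overlap either. Clu rose by 0.87 ± 0.08 on the log2 scale in EGFP-positive cells (SE, adjusted p = 0.000316). The mCherry value was 1.05 ± 0.26 (adjusted p = 0.0839), a larger estimate with a larger error.

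Lcat (ENSMUSG00000035237, chr8:105939551-105943382, minus strand) encodes the enzyme that esterifies cholesterol on the particle. It had 38.2, 21.6 and 30.6 CPM in mCherry-positive libraries, against 20.9, 16.5 and 7.37 CPM in mCherry-negative libraries. It had 101, 79.7 and 74.1 CPM in EGFP-positive libraries, against 50.5, 46.6 and 40.1 CPM in EGFP-negative libraries. Every EGFP library, negative ones included, lay above every mCherry library. Within sorts the fold was alike, 1.00 ± 0.15 on the log2 scale in the EGFP sort (SE, adjusted p = 0.00296) and 0.99 ± 0.38 in the mCherry sort (adjusted p = 0.205). Their difference was -0.04, with a 95% interval of -0.96 to 0.89. By TPM, Lcat was the third most abundant of the 9 genes over the 12 libraries, at 17.8 to 238 TPM.

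Abca1 (ENSMUSG00000015243, chr4:53030787-53159895, minus strand) encodes the transporter that passes cholesterol and phospholipid to lipid-poor apolipoproteins. It had 269.9, 123 and 248 CPM in mCherry-positive libraries, against 88.7, 44.4 and 57.7 CPM in mCherry-negative libraries. It had 118, 153 and 190.5 CPM in EGFP-positive libraries, against 83.2, 81.6 and 79.2 CPM in EGFP-negative libraries. Groups of a sort did not overlap, and mCherry-positive replicate 2 was the lowest of its group. Replicate 1 of that group, at 269.9 CPM, had a microglia and macrophage sum of 1173 CPM, and replicate 3, at 248 CPM, a sum of 151 CPM. The part of these cells in the Abca1 value was not tested. The log2 fold change was 1.73 ± 0.33 in the mCherry sort (SE, adjusted p = 0.0453) and 1.03 ± 0.17 in the EGFP sort (adjusted p = 0.00437). With any of the 6 mCherry libraries left out the mCherry value stayed at 1.48 to 2.04, but the adjusted p ran up to 0.180 and passed only without mCherry-positive replicate 2. The EGFP call passed with any library left out, at an adjusted p of at most 0.0325.

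Abcg1 (ENSMUSG00000024030, chr17:31057675-31117988, plus strand) encodes an exporter that loads cholesterol onto particles that already hold lipid. It had 64 to 354 reads per library and the lowest mean TPM of the 9 genes over the 12 libraries. Its level was 11.6, 7.09 and 10.8 CPM in mCherry-positive libraries, against 2.11, 2.61 and 6.54 CPM in mCherry-negative libraries. It was 4.17, 5.09 and 3.72 CPM in EGFP-positive libraries, against 8.999, 6.86 and 5.77 CPM in EGFP-negative libraries. Groups did not overlap in either sort, but mCherry-positive libraries were the higher ones and EGFP-positive libraries the lower ones. Neither change passed the test, at 1.37 ± 0.48 on the log2 scale in the mCherry sort (SE, adjusted p = 0.175) and -0.63 ± 0.24 in the EGFP sort (adjusted p = 0.109). The difference between both was 1.98 ± 0.56 (adjusted p = 0.101). With a library left out, the mCherry value ran over 1.08 to 2.04 and the difference over 1.67 to 2.62, and the difference was called only without mCherry-negative replicate 3 (adjusted p = 0.0140). That library had the highest Abcg1 level of its group and the highest microglia and macrophage sum, 290 CPM against 58.3 and 92.2 CPM. Among mCherry-positive libraries, replicate 1 at 11.6 CPM had a sum of 1173 CPM and replicate 3 at 10.8 CPM a sum of 151 CPM. The part of these cells in the Abcg1 values was not tested.

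Lpl (ENSMUSG00000015568, chr8:68880491-68907448, plus strand) encodes lipoprotein lipase, which releases fatty acids from particle triglycerides. It had 85.2, 36.6 and 24.6 CPM in mCherry-positive libraries, against 16.7, 16.3 and 21.8 CPM in mCherry-negative libraries. It had 41.0, 31.3 and 30.5 CPM in EGFP-positive libraries, against 12.9, 16.2 and 17.4 CPM in EGFP-negative libraries. The highest value, mCherry-positive replicate 1, came from the library with the highest microglia and macrophage sum, 1173 CPM. In mCherry-negative libraries that sum was 58.3 to 290 CPM, and the part of these cells in the Lpl value was not tested. Without that library the mCherry log2 fold change was 0.70, against 1.42 ± 0.43 with it (SE, adjusted p = 0.128). Lpl rose in EGFP-positive cells by 1.25 ± 0.18 (adjusted p = 0.00217), and there the same markers summed to 13.8 to 15.7 CPM in EGFP-positive libraries and 66.3 to 89.5 CPM in EGFP-negative libraries. Of 14 microglia and macrophage markers, 12 fell and 1 rose in EGFP-positive cells, where 7.07% of all genes were called lower and 8.99% higher.

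Lrp1 (ENSMUSG00000040249, chr10:127538161-127621148, minus strand) encodes a large endocytic receptor for apolipoprotein E and many other ligands. It had 231, 239 and 233 CPM in mCherry-positive libraries, against 209.5, 143 and 202 CPM in mCherry-negative libraries. It had 211, 226 and 221 CPM in EGFP-positive libraries, against 419, 388 and 333 CPM in EGFP-negative libraries. The EGFP-negative libraries stood above the other 9 without overlap. Lrp1 fell by 0.68 ± 0.11 on the log2 scale in EGFP-positive cells (SE, adjusted p = 0.00413), while its mCherry value was 0.32 ± 0.18 (adjusted p = 0.371). The mCherry effect minus the EGFP effect was 0.98 ± 0.21 (adjusted p = 0.0364), the only one of the 9 differences called, where 1.44% of all genes were called. Leaving out a library kept the estimate at 0.83 to 1.06, but the call held in 3 of 12 such fits, with an adjusted p of up to 0.108. With a replicate block by sort the adjusted p was 0.0527.

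Vldlr (ENSMUSG00000024924, chr19:27216484-27254231, plus strand) encodes a receptor of the same family that binds apolipoprotein E and also reelin. It had 92.4, 80.9 and 79.4 CPM in mCherry-positive libraries, against 83.6, 80.9 and 76.8 CPM in mCherry-negative libraries. It had 57.1, 63.6 and 73.1 CPM in EGFP-positive libraries, against 70.6, 76.5 and 75.4 CPM in EGFP-negative libraries. Groups overlapped in both sorts, and by TPM the highest library was 1.82 times the lowest, the smallest range of the 9 genes. Across sorts, mCherry libraries lay above EGFP libraries in CPM, among positive and among negative cells. Neither difference was called in edgeR (adjusted p = 0.288 for positive and 0.753 for negative cells). The log2 fold change was 0.05 in the mCherry sort (95% interval -0.34 to 0.43, adjusted p = 0.910) and -0.09 in the EGFP sort (95% interval -0.39 to 0.21, adjusted p = 0.711).

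Apod (ENSMUSG00000022548, chr16:31296192-31314808, minus strand) encodes apolipoprotein D and fell in EGFP-positive cells, where Apoe and Clu rose. It had 19.9, 3.67 and 8.88 CPM in mCherry-positive libraries, against 35.1, 15.1 and 11.9 CPM in mCherry-negative libraries. It had 6.17, 4.39 and 3.49 CPM in EGFP-positive libraries, against 34.6, 28.5 and 26.1 CPM in EGFP-negative libraries. The EGFP groups lay far apart, while the mCherry groups overlapped. Its log2 level fell by 2.58 ± 0.23 in EGFP-positive cells (SE, adjusted p = 0.000285), and its mCherry value was -0.94 ± 0.59 (adjusted p = 0.424). Without mCherry-positive replicate 1 the mCherry value was -1.78, and without mCherry-negative replicate 1 it was -0.34, with an adjusted p of 0.148 to 0.807 over the 6 fits that left out a library. Marker lists of several other cell types were lower in sum in EGFP-positive libraries. The fibroblast and mural sum was 241 to 253 CPM in EGFP-positive libraries and 504 to 532 CPM in EGFP-negative libraries, but 4 of 11 tested markers rose (Pdgfrb, Acta2, Tagln and Myl9) and 5 fell (Dcn, Lum, Col1a1, Col1a2 and Col3a1), and the median over the 11 was 0.27 on the log2 scale. The oligodendrocyte sum was 1988 to 2084 CPM in EGFP-positive libraries and 6224 to 6529 CPM in EGFP-negative libraries, with 11 of 12 markers lower. The pituitary hormone cell sum was 29.0 to 52.1 CPM in EGFP-positive libraries and 349.7 to 453 CPM in EGFP-negative libraries, with 4 of 7 tested markers lower. The microglia and macrophage sum, given beside Lpl, was lower too. Over all genes, 8.99% were called higher and 7.07% lower in this sort. The part of these cell types in the Apod result was not tested.

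Between the genes, the order of mean TPM over the 12 libraries was Apoe (6760 to 19615 TPM), Clu (434 to 1983), Lcat (17.8 to 238), Lrp1 (27.9 to 77.0), Abca1 (14.8 to 92.6), Vldlr (17.96 to 32.6), Apod (4.89 to 49.7), Lpl (4.01 to 28.9) and Abcg1 (1.06 to 5.65). Apoe and Clu stood clear of every other member in TPM, and the ranges of neighbours from Lcat to Abcg1 overlapped.

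Across the sorts, mCherry-positive cells had less Lcat, Clu and Apoe than EGFP-positive cells. These comparisons use the same 12 libraries as the ones within sorts. The log2 fold change was -1.64 ± 0.31 for Lcat (SE, adjusted p = 0.00279), -0.64 ± 0.20 for Clu (adjusted p = 0.0430) and -0.53 ± 0.15 for Apoe (adjusted p = 0.0274). That is 3 called of 9, all lower, where 7.67% of all genes were called lower and 17.6% in either direction. Of the 12 fits that left out a library, Lcat kept its call in 12, Apoe in 8 and Clu in 4, with an adjusted p of up to 0.125 for Apoe and 0.146 for Clu. Among reporter-negative cells, mCherry-negative cells had less Lrp1, Lcat and Clu than EGFP-negative cells. The log2 fold change was -1.03 ± 0.15 for Lrp1 (adjusted p = 0.00135), -1.60 ± 0.31 for Lcat (adjusted p = 0.00926) and -0.79 ± 0.20 for Clu (adjusted p = 0.0428). Here 3 of 9 were called, all lower, against 1.29% of all genes called lower and 3.96% in either direction. With a library left out, Lrp1 kept its call in all 12 fits, Lcat in all but the one without EGFP-negative replicate 1 (adjusted p = 0.0502), and Clu in 4 of 12 (adjusted p of up to 0.151). The Lcat gap between sorts was thus present in cells with and without reporter signal.

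Other genes of lipid transport were read from 6 lists chosen with earlier results known. In the EGFP sort, 8 of 15 LXR receptors and targets rose, where 8.99% of all genes were called upward. That list holds Apoe, Abca1, Abcg1 and Lpl, and 3 of its 8 rises are those of Apoe, Abca1 and Lpl, picked with their values known. Srebf1, the LXR-driven regulator of fatty acid synthesis, had 458, 440 and 469 CPM in EGFP-positive libraries and 265, 269 and 282 CPM in EGFP-negative libraries (log2 fold change 0.85 ± 0.09, adjusted p = 0.000538). Pltp, the phospholipid transfer protein, had 73.8, 76.8 and 75.2 CPM in EGFP-positive libraries and 51.3, 53.1 and 51.7 CPM in EGFP-negative libraries (log2 fold change 0.64 ± 0.11, adjusted p = 0.00542). Of 15 intracellular sterol and fatty acid carriers, 7 rose. Among them Soat1, which esterifies cholesterol inside the cell, rose by 0.96 ± 0.15 on the log2 scale (adjusted p = 0.00356), and Cyp46a1, the brain cholesterol 24-hydroxylase, by 1.00 ± 0.13 (adjusted p = 0.00125).

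Of 16 other lipoprotein receptors tested in the EGFP sort, 4 rose and 1, Trem2, fell. Trem2 is also on the microglia and macrophage list. Cd36, a fatty acid and lipoprotein scavenger receptor, had 13.7, 22.0 and 27.0 CPM in EGFP-positive libraries and 5.11, 6.74 and 4.42 CPM in EGFP-negative libraries (log2 fold change 2.06 ± 0.28, adjusted p = 0.00189). Sorl1, a sorting receptor for apolipoprotein E, was called in both sorts. It had 39.4, 36.6 and 49.3 CPM in mCherry-positive libraries and 17.5, 15.96 and 17.5 CPM in mCherry-negative libraries (log2 fold change 1.27 ± 0.21, adjusted p = 0.0349), and that call held in 1 of 6 fits that left out a library. Its EGFP log2 fold change was 1.01 ± 0.16 (adjusted p = 0.00366). Of 12 lipases and plasma lipid transfer genes 2 rose, Pla2g7 and Pltp, and of 12 other ABC lipid transporters Abca8a rose and Abcg2 fell. A count of 2 in 12 is close to the 16.1% of all genes called in either direction. Both calls among lipases and transfer genes were upward, where 8.99% of all genes were called upward. Abca8a kept its call in 3 of 6 fits that left out a library (adjusted p of up to 0.0788) and Abcg2 in 2 of 6 (up to 0.133). None of 6 other apolipoproteins tested passed in edgeR (0 at an unadjusted p under 0.05, 0 called by DESeq2). In EGFP-positive libraries Apool, Apoo and Apoc1 led that list, at means of 29.9, 14.6 and 4.46 CPM. Its other genes averaged under 1 CPM there, so this result says little about them. Gpihbp1, the endothelial anchor of lipoprotein lipase, was at 0 reads in all 12 libraries, as were Apoa5 and Apoc2. In the mCherry sort Sorl1 and Abca1 were the only genes of these 6 lists that passed in edgeR, where 1.20% of all genes were called. DESeq2 was run on all genes with reads, also those that edgeR's filter dropped, so its counts are given without a denominator. In that sort it called 5 LXR receptors and targets, 3 receptors, 2 ABC transporters and 2 lipases and transfer genes. It also called 1 carrier and 1 other apolipoprotein. Over all genes DESeq2 called 1512 of 27660 tested in that sort. The LXR list again includes Apoe, Abca1, Abcg1 and Lpl, picked with their values known.

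The other called genes of these lists in the EGFP sort with the smallest adjusted p were Smpdl3a (log2 fold change 0.93 ± 0.11, adjusted p = 0.00103), an LXR target, Lrp10, an LDL receptor relative (0.61 ± 0.10, adjusted p = 0.00462), and Dbi, the acyl-CoA binding protein (0.77 ± 0.14, adjusted p = 0.00726). Dbi had a mean of 4964 ± 1142 CPM in EGFP-positive libraries and 3133 ± 289 CPM in EGFP-negative libraries (SD, n = 3). Scd2, a fatty acid desaturase on the LXR list, did not pass in that sort, with a mean of 4451 ± 1413 CPM in EGFP-positive libraries and 3062 ± 217 CPM in EGFP-negative libraries (adjusted p = 0.0602 in edgeR). Across sorts, Osbp, an oxysterol-binding protein, was higher in mCherry-positive than in EGFP-positive cells (2.05 ± 0.27, adjusted p = 0.000274) and in mCherry-negative than in EGFP-negative cells (1.47 ± 0.27, adjusted p = 0.00594). Lrp8, the other reelin and apolipoprotein E receptor beside Vldlr, was higher in the same 2 comparisons, by 0.96 ± 0.20 (adjusted p = 0.00484) and 1.01 ± 0.20 (adjusted p = 0.00974) on the log2 scale. With a library left out, the Lrp8 call held in 12 of 12 fits for positive cells. For negative cells it held in 9 of 12 (adjusted p of up to 0.0637).

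**Figure D3:**
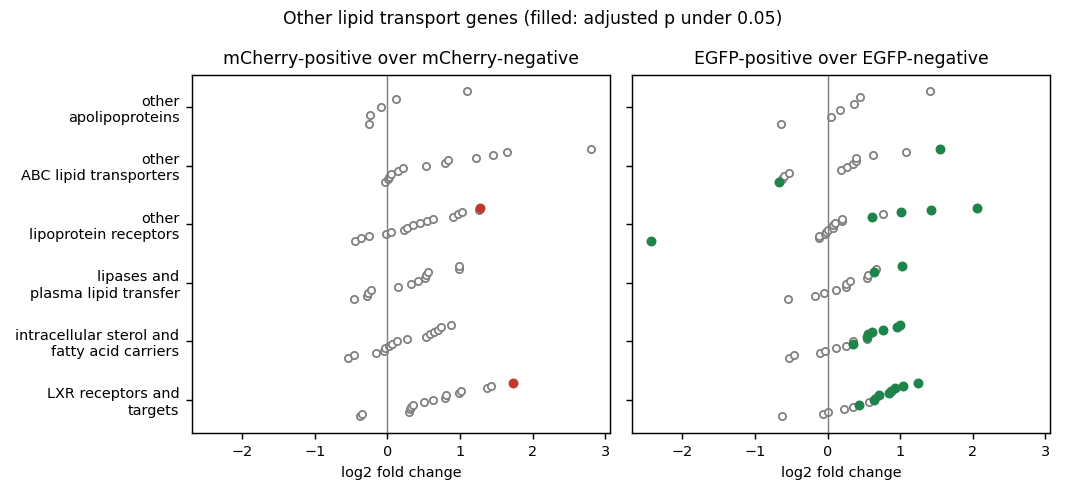
Log2 fold change of every tested gene of the 6 further lipid lists (LXR receptors and targets includes 4 of the 9 genes) in the mCherry and the EGFP sort, with genes past an adjusted p of 0.05 filled and both panels on the same axis. On the right of 0 in the EGFP sort, 8 of 15 genes of the LXR list, Apoe, Abca1 and Lpl among them, and 7 of 15 of the carrier list are filled.

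The cultures are labelled neuronal. Neuron markers summed to 1197 to 2345 CPM in mCherry-positive libraries against 1692 to 2261 CPM in mCherry-negative libraries, and to 885 to 1167 CPM in EGFP-positive libraries against 1435 to 1504 CPM in EGFP-negative libraries. Of 14 neuron markers, 9 fell in EGFP-positive cells, where 7.07% of all genes were called lower. Astrocyte markers were higher in the positive libraries of both sorts, as were most members. They summed to 10340 to 14607 CPM in mCherry-positive libraries, against 5049 to 8897 CPM in mCherry-negative libraries. They summed to 16825 to 20467 CPM in EGFP-positive libraries, against 9497 to 9748 CPM in EGFP-negative libraries. Of 12 astrocyte markers, 9 rose and 1 fell in EGFP-positive cells, and in the mCherry sort 2 of 12 rose. Over all genes, 8.99% were called higher and 7.07% lower in the EGFP sort. The share called higher in the mCherry sort was 0.541%. Ependymal and tanycyte markers were higher in positive libraries of both sorts as well. They summed to 209.8 to 265 CPM in mCherry-positive libraries against 72.3 to 109 CPM in mCherry-negative libraries, and to 239 to 284 CPM in EGFP-positive libraries against 155 to 162 CPM in EGFP-negative libraries. Of 10 such markers, 2 rose in mCherry-positive cells and 5 in EGFP-positive cells, with median log2 fold changes of 1.28 and 0.82. Apoe, Clu, Lcat and Abca1 are genes that astrocytes express, and the part of either marker list in their values was not tested. No astrocyte, oligodendrocyte, microglia, fibroblast or neuron marker was at 0 in all libraries.

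**Figure D4:**
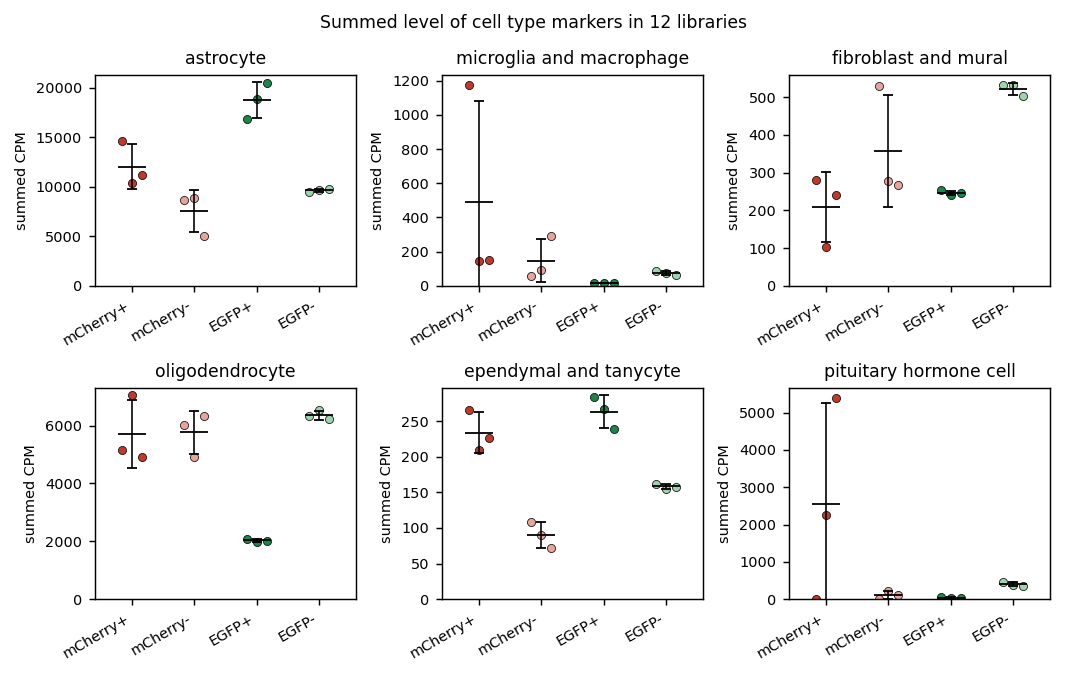
Summed CPM of marker lists for each library by group, on the vertical axis, with bars for the mean and SD over 3 libraries. SD bars that would pass below 0 (microglia and pituitary lists in mCherry-positive libraries, where single libraries stand apart) end at the axis. Astrocyte sums run higher in positive than in negative libraries of both sorts, and microglia sums are lowest in EGFP-positive libraries.

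Genes of like pattern were sought for each member among 10295 or 10296 genes that averaged 10 CPM or more. Likeness is the root mean square difference over 12 libraries between log2(CPM + 0.5) values centred on each gene's mean, so a smaller value is more alike. For Apoe, which itself spread 0.48 around its mean, the nearest were Ramp1 (0.12), Thrsp (0.14) and Rsph9 (0.14). For Clu they were Fcgrt (0.17), Entpd2 (0.17) and Cdkn2b (0.17), and for Lcat they were Hspb8 (0.24), Gfap (0.34), the astrocyte filament gene, and Fbxo2 (0.36). Abca1 was nearest to Glb1l2, Ccdc39 and Gpr37 (0.26 each) and Lpl to Ctsh (0.29), Cryzl2 (0.37) and Lacc1 (0.37). Apod was nearest to the collagen genes Col1a2 (0.54) and Col18a1 (0.69) and to Vtn (0.55), a loose match. Abcg1 was nearest to Ucp2 (0.35), Lrp1 to Stox2 (0.15) and Vldlr to Kifap3 (0.07). These distances cover the same libraries, depths and preparation for all genes and carry no test.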

How the data were processed

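The authors deposited raw counts of reads per Ensembl gene, without normalization, in 1 file for each sample. The submitters' processing notes name cutadapt 1.8, STAR 2.5.2b, HTSeq 0.6.1 and build GRCm38, with settings, annotation release and strand not given in the sources used here. No exon base of the 9 genes overlaps another gene's exon in GENCODE M21, used for symbols and exon lengths (48349 of 48709 identifiers matched, the rest at most 0.0279% of a library's gene reads). Entries that name no gene, 31.4% to 38.2% of each library's counted reads, were left out. Libraries held 16.3 to 32.9 M gene reads (M, megareads). Without molecular identifiers, PCR copies cannot be told from separate molecules. Replicates differed by more than sampling noise (chi-square per degree of freedom 6.20 to 88.5). The labels do not call them separate cultures, so p-values measure a spread between samples that may be technical.

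The 6 samples of each sort were fitted in edgeR 4.0.16 (R 4.3.3) with TMM scaling, filterByExpr (minimum count 10, minimum total 15) and group as the only term. Comparisons across sorts used 1 fit of all 12. Tests were quasi-likelihood tests, adjusted after Benjamini and Hochberg over all genes, with a call at an adjusted p under 0.05. The SE is the absolute log2 fold change over the square root of F. The scripts were tested on simulated data. Alternatives were DESeq2 1.42.0, other scaling, filters and samples, a replicate block and leaving out each library. TPM was computed from the counts and exon lengths. Named were all 9 genes, the genes nearest each in pattern (up to 3), and from each other lipid list up to 3 called genes of smallest adjusted p and the gene of highest level. Members and lists were chosen with earlier results of these data known.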

Additional observations from a re-analysis of the deposited data

Results flagged for a closer look

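The Lrp1 effect differed between the sorts by a test of the difference itself. Lrp1 had 231, 239 and 233 CPM in mCherry-positive libraries, against 209.5, 143 and 202 CPM in mCherry-negative libraries, and 211, 226 and 221 CPM in EGFP-positive libraries, against 419, 388 and 333 CPM in EGFP-negative libraries. The mCherry effect minus the EGFP effect was 0.98 on the log2 scale (quasi-likelihood test of edgeR, Benjamini-Hochberg adjusted p = 0.0364). The call held in 3 of 12 fits that left out a library, with an adjusted p of up to 0.108, and was lost with a replicate block by sort (adjusted p = 0.0527). The sorts differ in virus, reporter and RNA input, which cannot be told apart.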

How the results depend on the processing

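The number of members called in the mCherry sort was 1, and 4 with no filter, 2 with a stricter filter (at least 50 reads in 3 libraries), 5 with DESeq2, 2 with the replicate block, 5 in the fit of all 12 samples and 0 to 1 with a library left out. Over all genes that sort gave 208 calls of 17369 tested in edgeR. Calls over all genes rose too, to 778 of 27715 with no filter and 359 of 13860 with the stricter filter. They were 1512 of 27660 with DESeq2, 343 of 17369 with the replicate block and 1712 of 18063 in the fit of all 12 samples. There were 0 without mCherry-negative replicate 1 or 2 or without mCherry-positive replicate 3, with 3673, 2764 and 2439 genes at an unadjusted p under 0.05. In the EGFP sort 7 were called, 4 in the fit of all 12 samples and 7 in each fit with a library left out. Over all genes the EGFP sort gave 2622 calls of 16326, 3409 of 16326 with the replicate block and 801 of 18063 in the fit of all 12 samples. It gave 1137 to 5244 calls with a library left out. For the difference 1 was called, 2 with no filter, 2 with DESeq2, 0 with a replicate block by sort and 0 to 2 with a library left out. Over all genes the difference gave 261 calls of 18063, 675 of 29721 with no filter, 923 of 29664 with DESeq2 and 293 of 18063 with that block. Leaving out a library gave 27 to 591 calls. Of positive cells across sorts 3 were called, 1 with the stricter filter, 1 with the replicate block, 1 in the fit of the 6 samples compared and 1 to 4 with a library left out. Over all genes this comparison gave 3173 calls of 18063 and 2860 of 14127 with the stricter filter. It gave 1326 of 16921 with the block, 2182 of 16921 in the fit of the 6 samples and 1607 to 3975 calls with a library left out. Of negative cells 3 were called, and 1 to 3 with a library left out. Over all genes this comparison gave 715 calls of 18063, and 269 to 847 calls with a library left out. The sign of small log2 values turned in some fits. With a library left out, Vldlr ran over -0.061 to 0.12 in the mCherry sort and -0.19 to 0.011 in the EGFP sort, and Lpl between positive cells over -0.32 to 0.71. In the difference, leaving out a library gave -0.21 to 0.10 for Apoe, -0.062 to 0.35 for Clu, -0.55 to 0.48 for Lpl and -0.36 to 0.25 for Lcat. The stricter filter gave 0.012 for Apoe and 0.071 for Lcat in the difference and 0.041 for Lrp1 between positive cells. Lcat in the difference was 0.011 with DESeq2 size factors, 0.013 with DESeq2 and 0.038 with the replicate block by sort, which gave -0.064 for Lpl. The causes were not tested. Deviations of same-numbered libraries from their group means correlated weakly at most. The correlations were 0.13, -0.019 and 0.025 in the mCherry sort and 0.11, -0.0046 and 0.029 in the EGFP sort. With 3 libraries per group they cannot decide whether the numbers pair samples. Pituitary hormone cell sums were lowest in replicate 1 of both mCherry groups, at 9.60 CPM in the positive and 7.57 CPM in the negative library. The main fits used no pairing. Depth limits Abcg1 most, at 64 reads in its lowest library.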
